A study of Mus musculus with 17 samples.

Results

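YAP (gene Yap1) and TAZ (gene Wwtr1) are related coactivators that carry the output of the Hippo pathway. Active Hippo kinases (MST and LATS) phosphorylate them and hold them in the cytoplasm; when the kinases are off, or when cells are stretched or flattened, both enter the nucleus and bind TEAD factors, which sit on DNA and switch on genes such as Ccn2 (also Ctgf), Ccn1 (also Cyr61) and Ankrd1. In the lung alveolus this pathway is known for its part in the growth of alveolar type 2 (AT2) cells, which make surfactant, and in their passage to flat alveolar type 1 cells. The 10 genes described here were taken as a fixed list: the coactivators Yap1 and Wwtr1, the DNA-binding partner Tead1, and Ccn2, Ccn1, Ankrd1, Ajuba, Amotl1, Amotl2 and Lats2, most of them known YAP and TAZ targets. All 10 were found among the 43430 Ensembl gene IDs of both deposited count tables, and 9 of them had enough reads to be tested in each comparison. Ankrd1 did not.

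RNA was sequenced in 17 libraries of sorted AT2 cells from C57BL/6J mice aged 2 months. In the first experiment, 8 poly(A) libraries were made from 3 ng of RNA from uninjured (Naive) mice, 4 after Vehicle (Saline in the titles) and 4 after ISRIB, a small molecule that counters the translational brake of the integrated stress response. Cells were sorted 24 h after dosing. In the second, 9 total-RNA libraries were made from 0.35 ng of RNA, 4 of uninjured (Naive) mice and 5 of mice treated with Bleomycin 14 days earlier. Bleomycin injures the alveolar epithelium and leads to fibrosis. All 9 also carry the labels Vehicle and Saline. The labels give no dose, do not describe the sort and do not say whether each library came from 1 mouse, so the p-values measure the spread between these libraries. Because the kits, inputs and depths differed, each comparison stayed within its kit.

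Total counts ran from 10493574 to 15727139 in the poly(A) libraries and from 3295257 to 6333166 in the total-RNA libraries. Levels are CPM, counts set to a common library total after TMM scaling. The sorted cells carried their defining transcripts. The 10 AT2 markers summed to 183000 to 195000 CPM in the poly(A) libraries and to 50100 to 90000 CPM in the total-RNA libraries, with the lowest sum in bleomycin 1, and no marker was at 0. A gene was called at a Benjamini-Hochberg adjusted p under 0.05 by edgeR's quasi-likelihood test over all genes tested, and each stated error of a log2 fold change is its standard error (SE).

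The promoter windows of the members that rose in either comparison are shown because TEAD factors bind the letters CATTCC. On the other strand these read as GGAATG. RefSeq windows (GRCm38.p6, 250 bases before to 50 after a transcript start) were found for 8 of the 10 members, in 10 windows. Those for Ccn2 and Tead1 were missing. The motif was present on either strand in 7 of these 8 genes, Amotl1 being the exception, against 16.6% of all genes and 14.7% of the 32851 windows in the table. Below, the motif is in capitals and each sequence runs 5′ to 3′ on the gene's strand, with Ankrd1 added as a target that did not reach the tested level.
Ccn1: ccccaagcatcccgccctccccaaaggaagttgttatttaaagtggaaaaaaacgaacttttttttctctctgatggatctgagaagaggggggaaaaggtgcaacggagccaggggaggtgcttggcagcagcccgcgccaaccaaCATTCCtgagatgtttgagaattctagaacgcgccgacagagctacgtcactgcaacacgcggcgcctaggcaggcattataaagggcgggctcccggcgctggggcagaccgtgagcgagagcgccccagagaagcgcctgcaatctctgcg
Ajuba: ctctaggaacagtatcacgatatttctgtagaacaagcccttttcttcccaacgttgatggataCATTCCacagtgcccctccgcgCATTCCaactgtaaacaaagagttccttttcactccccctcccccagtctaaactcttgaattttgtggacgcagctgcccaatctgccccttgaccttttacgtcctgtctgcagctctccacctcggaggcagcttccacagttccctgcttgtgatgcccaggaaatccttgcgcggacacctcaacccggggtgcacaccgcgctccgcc
Wwtr1: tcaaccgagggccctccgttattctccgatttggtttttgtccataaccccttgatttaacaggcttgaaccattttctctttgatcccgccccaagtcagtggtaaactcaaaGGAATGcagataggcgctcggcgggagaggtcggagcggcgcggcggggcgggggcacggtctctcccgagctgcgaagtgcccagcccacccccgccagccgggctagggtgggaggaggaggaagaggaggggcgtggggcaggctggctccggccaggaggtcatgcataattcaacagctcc
Lats2: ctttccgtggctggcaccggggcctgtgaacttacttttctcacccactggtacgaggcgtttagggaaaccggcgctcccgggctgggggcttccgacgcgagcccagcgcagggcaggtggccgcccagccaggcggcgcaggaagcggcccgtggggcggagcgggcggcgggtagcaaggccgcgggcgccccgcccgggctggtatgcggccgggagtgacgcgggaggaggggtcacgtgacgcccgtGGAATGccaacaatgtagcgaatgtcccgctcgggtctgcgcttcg
Ankrd1: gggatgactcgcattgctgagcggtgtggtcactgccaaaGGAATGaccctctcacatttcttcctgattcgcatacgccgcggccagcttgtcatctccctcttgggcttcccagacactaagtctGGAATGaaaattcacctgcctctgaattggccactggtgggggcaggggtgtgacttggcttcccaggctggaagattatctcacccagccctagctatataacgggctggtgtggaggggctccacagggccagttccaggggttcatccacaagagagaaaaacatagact
These windows are chr3:145649936-145650235 for Ccn1, chr14:54577612-54577911 for Ajuba, chr3:57575861-57576160 for Wwtr1, chr14:57746074-57746373 for Lats2 and chr19:36119795-36120094 for Ankrd1, all on the minus strand. Counted from the transcript start, the motif began at -103 in Ccn1, at -186 and -164 in Ajuba, at -136 in Wwtr1, at -210 and -123 in Ankrd1, and at base 5 downstream of the start in Lats2. The second Lats2 window, at chr14:57734369-57734668, did not hold it. The windows of Yap1 (at -141) and Amotl2 (at -65), neither of which was called in either comparison, held it too. The AP-1 motif TGANTCA, searched on both strands and able to overlap the TEAD motif by its last letters, was in none of the 10 member windows and in 7.81% of all windows, and the CArG box of serum response factor was in none of the 10 and in 1.63%. A match to these letters is a description and not evidence of binding.

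In uninjured AT2 cells the coactivators themselves were readily measured, while the targets Ccn1, Ccn2 and Ankrd1 were lower and Amotl2 was the highest member. Per kilobase of exon, the vehicle libraries held 35.7 ± 1.4 CPM of Amotl2, an angiomotin-like junction protein that binds YAP (SD, n = 4 for all values in this paragraph). Wwtr1 followed at 17 ± 0.708 and Yap1 at 13.7 ± 0.61 CPM per kilobase, and their ranges did not overlap. Lats2, the kinase that phosphorylates YAP and TAZ and is itself a target, stood at 6.4 ± 0.423, Amotl1 at 5.55 ± 0.632 and Tead1 at 5.13 ± 0.211, and each of these ranges overlapped the next. Ajuba, a LIM-domain protein that restrains LATS kinases, and Ccn1, a secreted matrix protein, lay together at 3.81 ± 0.511 and 3.8 ± 0.258. Ccn2, also a secreted matrix protein and a profibrotic factor, was lower at 0.893 ± 0.244, and Ankrd1, a nuclear ankyrin-repeat protein, was lowest at 0.0479 ± 0.0555 CPM per kilobase, with 7 counts over the 4 libraries.

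In the naive total-RNA libraries, Amotl2 again led at 33.7 ± 1.75 CPM per kilobase (SD, n = 4). Wwtr1 (11.9 ± 1.31) and Yap1 (10.8 ± 0.813) came next, here with overlapping ranges. Ccn1 stood at 2.12 ± 0.917, Ajuba at 1.82 ± 0.334, Ccn2 at 0.19 ± 0.0489 and Ankrd1 at 0.187 ± 0.163 CPM per kilobase, and the range of Ccn1 overlapped that of Ajuba, and the range of Ccn2 that of Ankrd1. After bleomycin the order changed: Ccn1 reached 16.3 ± 6.02 CPM per kilobase (n = 5), level with Wwtr1 at 16.3 ± 2.95, and Ccn2 reached 3.61 ± 2.77.

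Bleomycin and naive libraries were set against each other to ask which members differ in AT2 cells of injured lungs. The secreted targets Ccn2 and Ccn1 rose the most of the 9 members tested, Ajuba rose 2.5-fold, and the coactivator gene Wwtr1 rose slightly while Yap1 did not. Of these 9 members 4 were called higher and 0 lower, where 11.2% of the 11223 genes tested were called higher and 9.31% lower. Ccn2 and Ccn1 had enough reads to be tested only through their bleomycin libraries, so neither could readily be called lower. That limits the counts of members in each direction. Without adjustment, a p under 0.05 was reached by 33.3% of all genes. Groups that did not overlap were seen for 3 members, all higher, and for 19.7% of all genes (10.4% higher, 9.35% lower). Fold changes above 0 were found for 8 of the 9 members and 50.2% of all genes. The members' median log2 fold change was 0.21 against 0.0026 over all genes tested. The plot of levels by library in the bleomycin experiment shows these values.

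**Figure D1:**
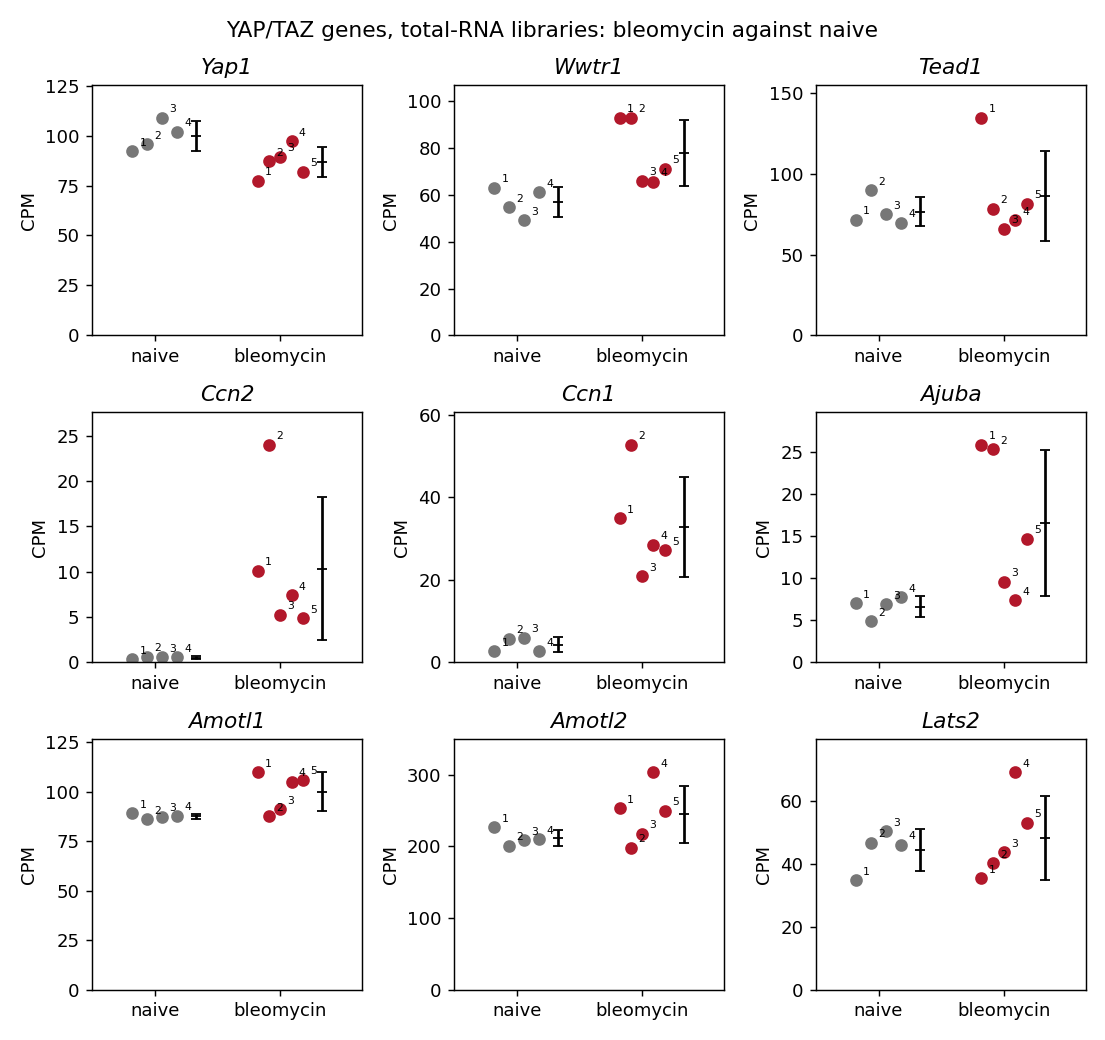
CPM of 9 members in the naive (grey) and bleomycin (red) total-RNA libraries, 1 point per library with its replicate number, beside the mean and SD of each group; every axis starts at 0. All 5 bleomycin points lie above all 4 naive points for Ccn2, Ccn1 and Wwtr1, while the other 6 panels overlap.

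Ccn2 (ENSMUSG00000019997, GRCm38 chromosome 10, 24595442 to 24598683, plus strand) was close to undetected before injury. Its levels in naive 1 to 4 were 0.335, 0.641, 0.601 and 0.596 CPM, which are 1, 3, 2 and 2 reads. In bleomycin 1 to 5 they were 10.1, 24, 5.27, 7.43 and 4.91 CPM. Every bleomycin library lay above every naive one, and bleomycin 2 stood above its group. The log2 fold change was 4.15 (SE 0.623, adjusted p 0.000115). Its naive reads alone were too few for testing, so the test could hardly have called it lower. In summed counts, 260 against 8, the ratio was 18.4 with a 95% Clopper-Pearson interval of 9.21 to 43.1, which covers counting error only. Without bleomycin 2 the log2 fold change was 3.56. Of the 2861 exon bases of Ccn2, 665 overlap the opposite-strand model Gm15270, which had 22 counts over all 9 libraries against 268 for Ccn2.

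Ccn1 (ENSMUSG00000028195, chromosome 3, 145646976 to 145649981, minus strand) rose from a higher base. It measured 2.68, 5.77, 6.01 and 2.68 CPM in naive 1 to 4, which are 8, 27, 20 and 9 reads. These naive reads alone were just too few for testing, so the test could hardly have called Ccn1 lower. The bleomycin libraries held 34.9, 52.7, 20.9, 28.5 and 27.2 CPM. The groups were well apart, and bleomycin 2 was again highest. The log2 fold change was 2.90 (SE 0.316, adjusted p 4.82e-06), and it stayed between 2.66 and 3.1 when any 1 library was left out.

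Ajuba (ENSMUSG00000022178, chromosome 14, 54567472 to 54577558, minus strand) rose unevenly. Naive 1 to 4 held 7.04, 4.91, 6.91 and 7.75 CPM, and bleomycin 1 to 5 held 25.9, 25.4, 9.6, 7.43 and 14.7 CPM. Bleomycin 1 and 2 were high, and bleomycin 4 fell within the naive range. The log2 fold change was 1.33 (SE 0.352, adjusted p 0.0116). Limma-voom did not call it (1.21, adjusted p 0.0578).

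Wwtr1 (ENSMUSG00000027803, chromosome 3, 57455649 to 57575910, minus strand), which encodes TAZ, rose less. Its levels were 63.1, 54.9, 49.2 and 61.1 CPM in naive 1 to 4 and 93.1, 93.1, 66.1, 65.6 and 71.3 CPM in bleomycin 1 to 5. The groups did not overlap, but only narrowly, and bleomycin 1 and 2 were again the highest. The log2 fold change was 0.45 (SE 0.143, adjusted p 0.0319). The call was lost when naive 2, 3 or 4, or bleomycin 1 or 2, was left out (adjusted p 0.091, 0.119, 0.0633, 0.0551 and 0.0709), with log2 fold changes of 0.38 to 0.51 over all 9 single omissions.

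Yap1 (ENSMUSG00000053110, chromosome 9, 7931999 to 8004596, minus strand) did not move with its relative. It held 92.2, 95.7, 109 and 102 CPM in naive 1 to 4 and 77.5, 87.2, 89.5, 97.2 and 82 CPM after bleomycin. Of the 5 bleomycin libraries 4 lay below all naive ones, and the log2 fold change, -0.21 (SE 0.112), did not pass (adjusted p 0.211). Because the ratio of Wwtr1 to Yap1 within a library does not depend on scaling, it was compared directly. Its log2 mean was -0.81 ± 0.251 in naive (n = 4) and -0.17 ± 0.35 in bleomycin libraries (n = 5), a difference of 0.64 (exact two-sided permutation test, p = 0.0317; 0.0635 after Benjamini-Hochberg adjustment over 4 such ratios, with 0.0159 the smallest unadjusted p the design allows). The highest naive value, -0.55, lay just above the lowest bleomycin value, -0.57, and the difference does not pass after adjustment.

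The other tested members were not called after bleomycin. Tead1, the DNA-binding partner, stood at 0.17 on the log2 fold change scale (SE 0.179, adjusted p 0.554), with bleomycin 1 at 135 CPM and the other 4 bleomycin libraries at 66.1 to 81.6 against 69.7 to 90 CPM in naive libraries. Without bleomycin 1 its sign turned (-0.04). Lats2 stood at 44.6 ± 6.73 CPM in naive (n = 4) and 48.4 ± 13.4 CPM in bleomycin libraries (n = 5), and its log2 fold change was 0.11 (SE 0.183, adjusted p 0.72). Its sign turned without bleomycin 4 (-0.04). For the junction genes Amotl1 and Amotl2 the log2 fold changes were 0.19 (SE 0.111, adjusted p 0.253) and 0.21 (SE 0.124, adjusted p 0.266). Ankrd1 totalled 8 counts in naive and 18 in bleomycin libraries, and the depth-scaled ratio was 1.27 with an interval of 0.527 to 3.39, so no change was detectable at this depth.

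Markers of other cell types also moved in these libraries. Of 13 alveolar type 1 markers tested (14 listed), 9 were called higher and 0 lower, and the list's summed level ran from 1630 to 1840 CPM in naive and from 2450 to 3030 CPM in bleomycin libraries. The bleomycin library with the most, bleomycin 1, was not the one with the most Ccn2 or Ccn1. For the 11 fibroblast markers the sums were 5.66 to 16.1 CPM in naive libraries and 61.4, 126, 19.2, 33.1 and 27.6 CPM in bleomycin 1 to 5. Only 4 of these 11 could be tested, and 3 collagen genes (Col1a1, Col1a2 and Col3a1) were called higher. Acta2, also tested, was not called (adjusted p 0.132). All 4 lay above 0, with a median log2 fold change of 2.53. Col1a1, at 0.3 to 3.02 CPM in naive libraries, had enough reads to be tested only through its bleomycin libraries. Col1a2 and Acta2 could be tested in only 10 and 12 of the 15 other settings. A fall in such low markers could hardly be called, which limits what the shared direction means. The Col1a2 call (adjusted p 0.0334) was lost in 6 of 10 other settings, with DESeq2, with limma-voom and without each naive library in turn, and limma-voom did not call Col1a1 (adjusted p 0.144). Among the fibroblast markers not tested, Lum and Tcf21 had 0 counts in all 5 bleomycin libraries. Pdgfra stood at 0.928 CPM in naive and 1 CPM in bleomycin libraries, and Dcn at 0.0534 and 1.81 CPM. Bleomycin 2, highest in Ccn2 and Ccn1, was also highest in the fibroblast sum. Bleomycin 3 had the lowest fibroblast sum of its group, 19.2 CPM, which was still above every naive sum. Its Ccn1, 20.9 CPM, and Ccn2, 5.27 CPM, were also above every naive library. The 10 endothelial markers summed to 23 to 33.5 CPM in naive and 27.8 to 87.7 CPM in bleomycin libraries, with 2 of 6 tested called higher. The 5 mesothelial markers present summed to 0.3 to 7.38 and 3.44 to 22.9 CPM, with the 1 tested, Msln, called higher. Msln too had enough reads to be tested only through its bleomycin libraries, so it could hardly be called lower. The 10 macrophage and monocyte markers summed to 6.41 to 10.4 and 5.96 to 11.4 CPM, with neither of 2 tested called. The 8 airway markers summed to 449 to 913 and 483 to 939 CPM, with the ciliated-cell genes Foxj1 and Ccdc39 called higher. Limma-voom did not call Msln, Foxj1 or the endothelial gene Vwf (adjusted p 0.106, 0.0987 and 0.0998). The other endothelial call, Cdh5, was lost in 5 of 15 other settings, and the Ccdc39 call in 6 of 15. The AT2 markers themselves summed to 82600 to 90000 CPM in naive libraries and to 50100, 60900, 88000, 73600 and 78900 CPM in bleomycin 1 to 5, so bleomycin 1 and 2, the highest in Ajuba and Wwtr1, were lowest in these. Of the 10 AT2 markers tested, 1 was called higher (Napsa), 1 lower (Etv5) and 8 were not called. The Napsa call (adjusted p 0.0425) was lost in 9 of 15 other settings. The part of these cells in the members' changes was not tested, and in sorted bulk RNA a change in the share of cells and a change per cell cannot be told apart.

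**Figure D2:**
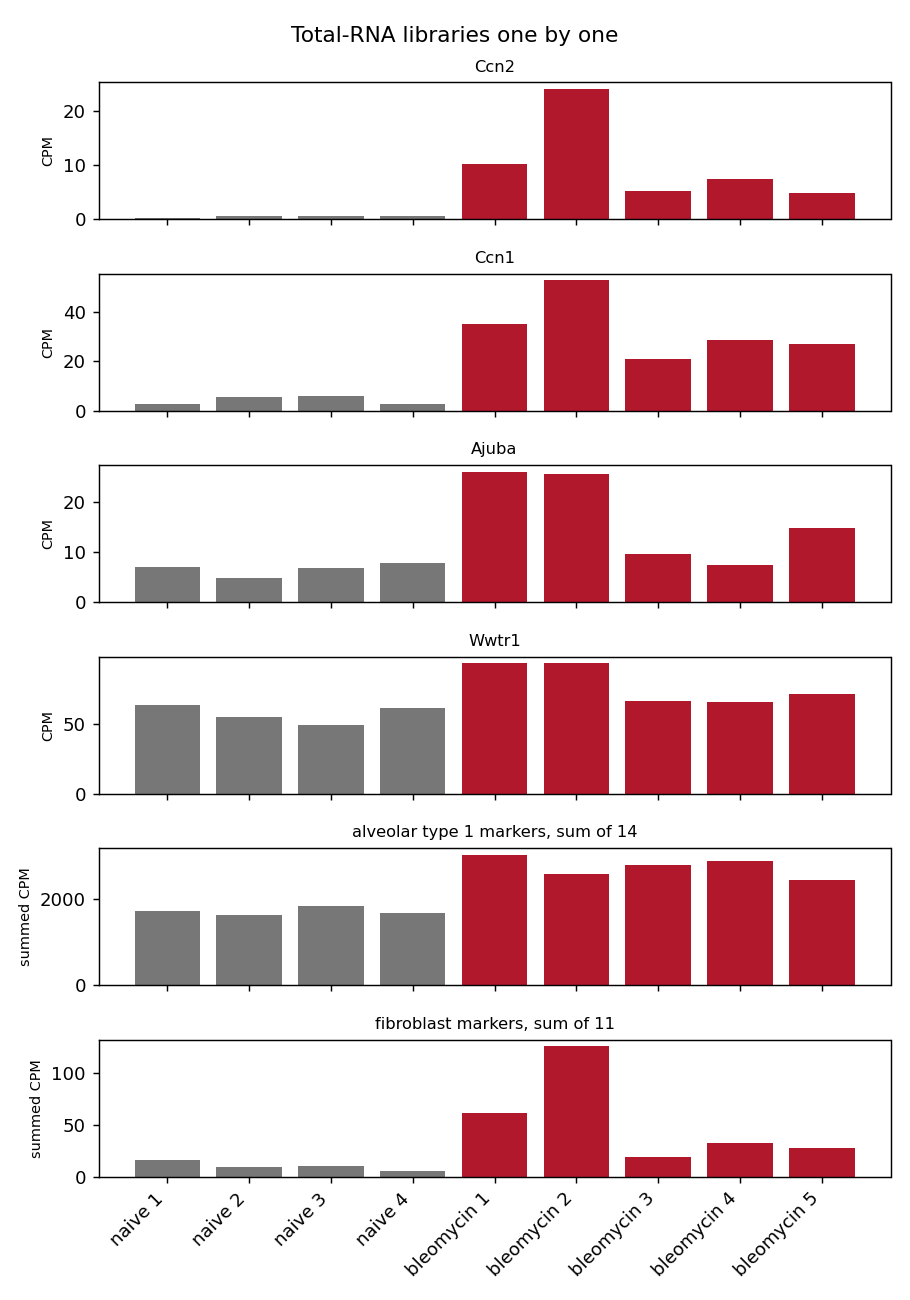
Bars give CPM of Ccn2, Ccn1, Ajuba and Wwtr1, and the summed CPM of 14 alveolar type 1 and 11 fibroblast markers, in each naive (grey) and bleomycin (red) library; all axes start at 0. Bleomycin 2 has the tallest Ccn2, Ccn1 and fibroblast bars, whereas the alveolar type 1 bars of the 5 bleomycin libraries lie between 2450 and 3030 CPM.

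A longer list of 28 other genes known as YAP and TAZ targets was mixed after bleomycin. Of 21 tested, 8 were called higher and 4 lower (57.1%, against 20.5% of all genes tested in either direction), with a median log2 fold change of 0.65. Thbs1, which encodes the matrix protein thrombospondin, went from 79.6 to 113 CPM in naive libraries to 229 to 363 CPM after bleomycin (log2 fold change 1.60, SE 0.154, adjusted p 1.26e-06). Crim1, a transmembrane protein that binds bone morphogenetic proteins, went from 8.35 to 13.8 CPM to 28.3 to 53.4 CPM (1.77, SE 0.226, adjusted p 2.61e-05). The EGF receptor ligand Areg went from 35.5 to 44.9 CPM to 58.5 to 97.2 CPM (1.07, SE 0.158, adjusted p 0.000111). These 3 genes were among 11 of the 21 tested whose groups did not overlap, where 19.7% of all genes tested did not.

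Further targets rose from very low levels. Tgfb2, a TGF-beta ligand, totalled 7 counts in the naive and 256 in the bleomycin group (log2 fold change 4.43, SE 0.751, adjusted p 0.000317). For Ccdc80, a secreted matrix-associated protein, the counts were 10 and 221 (3.67, SE 0.661, adjusted p 0.000616), and for Nt5e, the ecto-enzyme CD73, 24 and 304 (2.81, SE 0.576, adjusted p 0.00198). Limma-voom did not call Ccdc80 (adjusted p 0.0608) or Nt5e (0.0658). Birc5, a mitosis and survival gene, had 12 and 192 counts (3.21, SE 0.723, adjusted p 0.00388). Tgfb2, Ccdc80, Nt5e and Birc5 had enough reads to be tested only through their bleomycin libraries. A fall in them could hardly be called, which limits the count of targets called in each direction. The tyrosine phosphatase gene Ptpn14, listed both as a target and as an upstream regulator, was called at 0.73 (adjusted p 0.0454), but 7 of 15 other settings, all but 1 of them the omission of a single library, lost the call.

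The 4 targets that fell were all well expressed. Axin2, a feedback inhibitor of Wnt signalling, fell from 52.2 ± 4.9 CPM (n = 4) to 26.5 ± 9.8 CPM (n = 5), and its log2 fold change was -0.99 (SE 0.211, adjusted p 0.0029). Rbms3, an RNA-binding protein gene, fell from 120 ± 17.5 to 64.2 ± 9.07 CPM (-0.90, SE 0.133, adjusted p 0.000115), and the growth factor gene Fgf1 from 182 ± 16.2 to 115 ± 19.2 CPM (-0.66, SE 0.131, adjusted p 0.00151). Arhgef28, a guanine nucleotide exchange factor, was called at -0.41 (adjusted p 0.0408), and 7 of 15 other settings lost that call. The listed targets Myof (0.06, adjusted p 0.762) and F3, the tissue factor gene (0.65, adjusted p 0.205), were not called. Axl had 10 and 42 counts and was not tested.

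**Figure D3:**
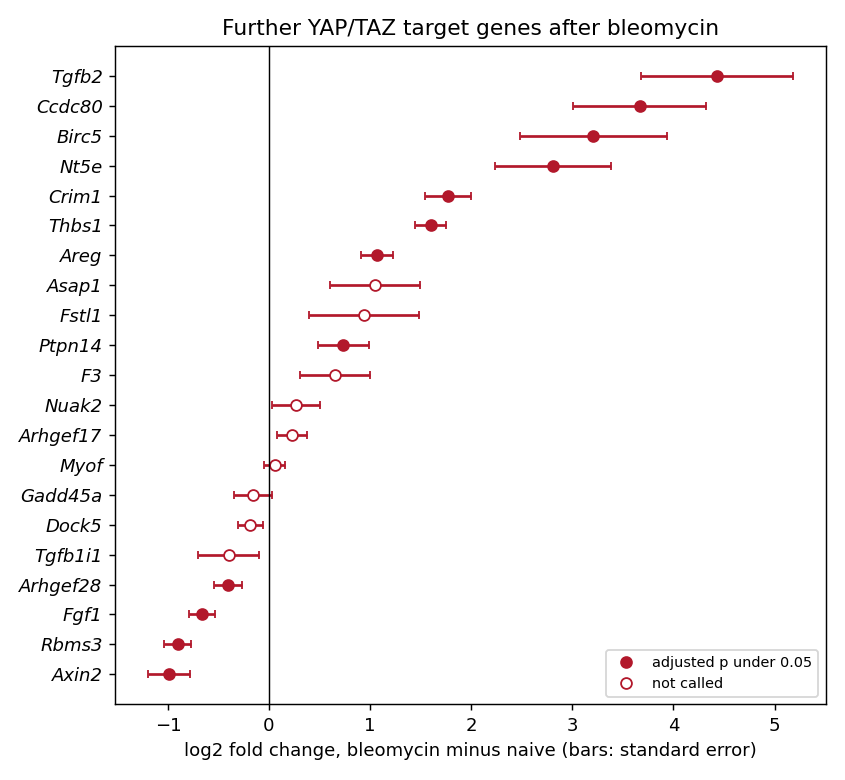
Log2 fold change of bleomycin over naive (bars: SE) for the 21 tested genes of the longer target list; filled points have an adjusted p under 0.05. The 8 called higher reach 4.43 (Tgfb2), and the 4 called lower reach -0.99 (Axin2).

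The kinases upstream changed little after bleomycin. Of 12 kinase-core genes tested, 1 was called higher, Map4k4, a kinase that can activate LATS (0.48, SE 0.142, adjusted p 0.0208). That call was lost without naive 1, 2 or 3 (adjusted p up to 0.0734). The MST kinase genes Stk3 (0.45, adjusted p 0.128) and Stk4 (-0.09, adjusted p 0.644), their scaffold Sav1 (-0.08, adjusted p 0.764) and Lats1 (0.19, adjusted p 0.226) were not called. Of 16 tested upstream regulators (18 listed), 3 were called higher and 1 lower (25%), near the 20.5% of all genes tested, and the share in the kinase core was 8.33%. Fat1, a giant cadherin, was 497 to 529 CPM in naive and 674 to 823 CPM in bleomycin libraries (0.56, SE 0.108, adjusted p 0.0013), and the tight-junction gene Tjp1 249 to 262 and 285 to 403 CPM (0.42, SE 0.115, adjusted p 0.0138). The third was Ptpn14. Frmd6, a FERM-domain protein that acts above the kinases, was the 1 that fell, from 47.4 to 57.8 CPM to 24.9 to 32.3 CPM (-0.92, SE 0.137, adjusted p 0.000121). Nf2, which encodes merlin, was not called (0.11, adjusted p 0.606). Among the other TEAD factors and their Vgll cofactors, Tead3 (-0.18, adjusted p 0.503), Tead4 (-0.50, adjusted p 0.212) and Vgll4, a competitor of YAP for TEAD binding (-0.27, adjusted p 0.231), were tested and none was called. Tead2, Vgll1 and Vgll3 fell below the filter with 26, 1 and 3 counts in naive and 36, 0 and 4 in bleomycin libraries.

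By a fixed rule, the genes whose levels ran closest to Ccn2 over the 9 total-RNA libraries were Cldn4, Dglucy, Kif1a, Tpx2 and Nek2. Likeness was the root mean square difference in log2 CPM after each gene's naive mean was subtracted, among 9163 protein-coding genes with standard symbols and a mean of at least 5 CPM. That mean was taken over all 9 libraries. Since only the naive mean was subtracted, a rise of similar size after bleomycin weighs heavily in this measure. The log2 fold changes of the 5 genes ran from 3.15 (Dglucy) to 4.28 (Cldn4). It was 0.336 for Cldn4, 0.355 for Dglucy, 0.382 for Kif1a, 0.454 for Tpx2 and 0.458 for Nek2, where Ccn2 itself differed from its naive mean by 2.46. Cldn4 encodes a tight-junction claudin, and Tpx2 and Nek2 encode proteins of the mitotic spindle and centrosome. In the 8 poly(A) libraries, where Ccn2 moved by only 0.346, the closest were Aen, Utp4, Ctps, Jmjd4 and Fbxl16, at 0.123 to 0.174.

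ISRIB and vehicle libraries were set against each other to ask which members the drug changed in uninjured AT2 cells. Lats2 was the member that rose, by 1.29-fold, and Ccn1, Ajuba, Wwtr1 and Yap1 had small positive fold changes that did not pass. Of 9 members tested 1 was called higher and 0 lower, where 1.1% of the 12054 genes tested were called higher and 1.1% lower (2.2% in all). Members above 0 numbered 8 of 9, against 50% of all genes, and the members' median log2 fold change was 0.15 against -0.00014 over all genes tested.

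**Figure D4:**
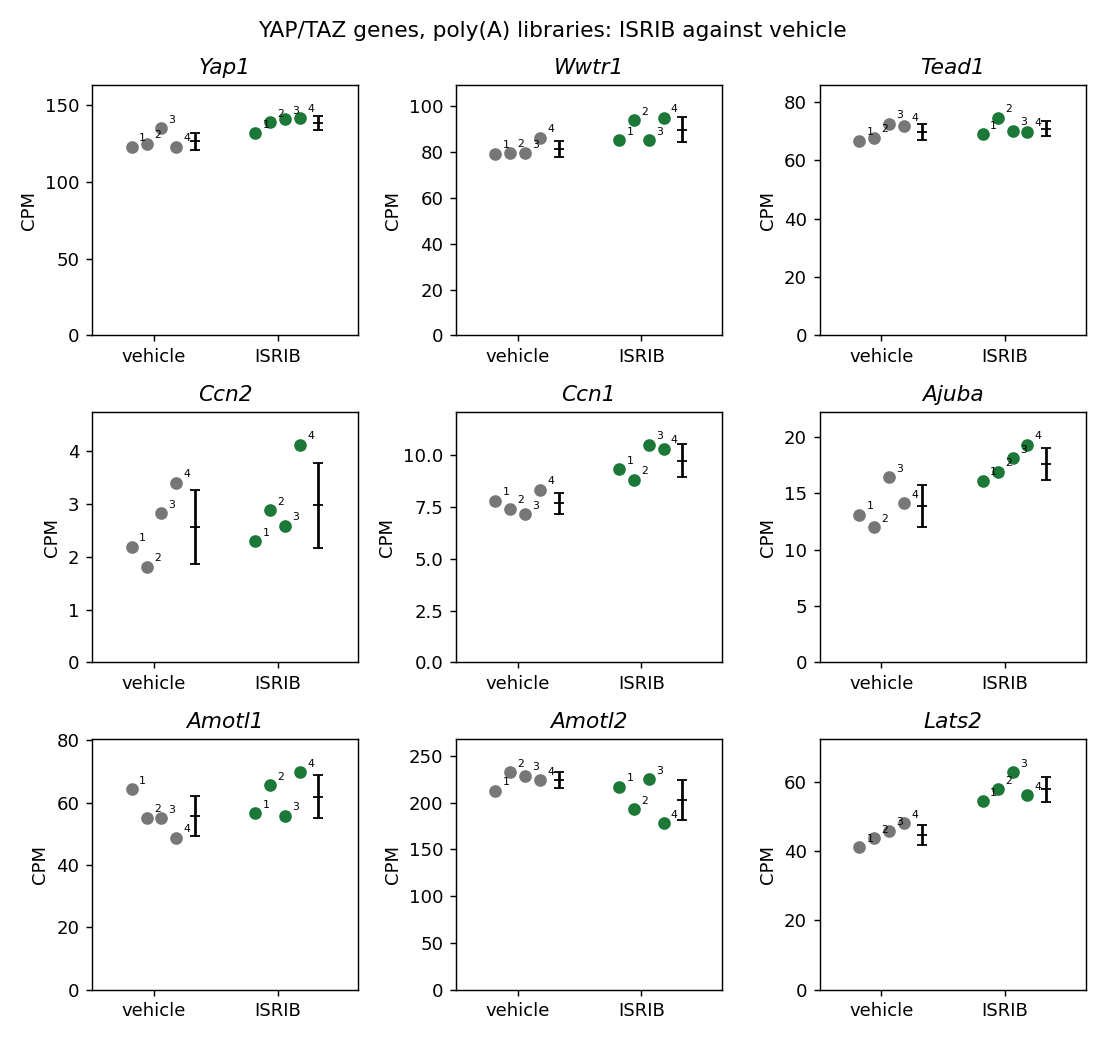
CPM of 9 members in the vehicle (grey) and ISRIB (green) poly(A) libraries, 1 point per library with its replicate number, beside the mean and SD of each group; every axis starts at 0. All 4 ISRIB points lie above all 4 vehicle points for Lats2 and Ccn1, and the other 7 panels overlap.

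Lats2 (ENSMUSG00000021959, chromosome 14, 57689662 to 57758388, minus strand) held 41.1, 43.7, 45.8 and 48 CPM in vehicle 1 to 4. ISRIB 1 to 4 held 54.3, 57.8, 62.8 and 56.1 CPM. The groups did not overlap, and the gap between them was wider than the SD of either group (2.95 and 3.63 CPM). The log2 fold change was 0.37 (SE 0.0677, adjusted p 0.00968), it passed in all 8 single omissions (0.33 to 0.40), and it passed in the other 6 settings tried. Of the 6971 exon bases of Lats2, 2955 are shared with the same-strand model Gm49361, which has no row in the count tables used here, so the assignment of reads there is uncertain. Relative to its paralog Lats1 within each library, the log2 ratio was -0.92 ± 0.0875 in vehicle and -0.64 ± 0.0724 in ISRIB libraries (n = 4 each), a difference of 0.29. The exact two-sided permutation test gave p = 0.0286, the smallest this design allows, and 0.0635 after adjustment over the 4 ratios. Lats1 itself was at 0.08 on that scale (SE 0.0509, adjusted p 0.451).

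Ccn1 also separated the groups without passing. Its levels were 7.8, 7.42, 7.15 and 8.34 CPM in vehicle 1 to 4 and 9.32, 8.81, 10.5 and 10.3 CPM in ISRIB 1 to 4. Such non-overlapping groups occurred in 8.65% of all genes tested (4.26% higher, 4.39% lower) and in 2 of the 9 members, both higher. The log2 fold change was 0.34 (SE 0.12, adjusted p 0.161). Ajuba measured 13.1, 12, 16.4 and 14.1 CPM in vehicle and 16.1, 16.9, 18.1 and 19.3 CPM in ISRIB libraries, with vehicle 3 inside the ISRIB range (0.33, SE 0.107, adjusted p 0.13). Ccn2 held 2.19, 1.81, 2.82 and 3.4 CPM in vehicle and 2.3, 2.88, 2.59 and 4.12 CPM in ISRIB libraries, and the groups overlapped broadly (0.21, SE 0.255, adjusted p 0.767). Ankrd1 had 7 and 15 counts, a ratio of 2.03 with an interval of 0.779 to 5.88.

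The coactivators and their partner did not pass after ISRIB. Yap1 went from 127 ± 5.65 to 138 ± 4.56 CPM (SD, n = 4 per group), and its log2 fold change was 0.13 (SE 0.052, adjusted p 0.233). Wwtr1 went from 81.3 ± 3.38 to 89.8 ± 5.43 CPM (0.14, SE 0.0584, adjusted p 0.227), and the ratio of Wwtr1 to Yap1 differed by 0.01 (exact two-sided permutation test, p = 0.857). Tead1 was at 69.7 ± 2.86 and 70.9 ± 2.53 CPM (0.02, SE 0.0551, adjusted p 0.896), and its sign turned without ISRIB 2 (-0.0019). Amotl1 (0.15, adjusted p 0.42) and Amotl2 (-0.14, adjusted p 0.312), the single member below 0, did not pass either.

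In the Hippo, TEAD and target lists around these members, 2 genes were called after ISRIB, where 2.2% of all genes tested were. In the kinase core of 12 genes, Map4k4 rose from 73.4, 75.2, 74.2 and 77.2 CPM in vehicle 1 to 4 to 82.7, 87.1, 90.1 and 91.8 CPM in ISRIB 1 to 4 (0.23, SE 0.0541, adjusted p 0.035). That call was lost without vehicle 1, 2 or 3 or ISRIB 2, 3 or 4 (adjusted p up to 0.114). Of 21 tested genes of the longer target list, Nuak2, an AMPK-related kinase, was called lower, from 19.2, 21.9, 20 and 15 CPM in vehicle 1 to 4 to 12.5, 13.6, 10.9 and 10.9 CPM in ISRIB 1 to 4 (-0.67, SE 0.118, adjusted p 0.00817), and it passed in all 14 other settings. The list's median was -0.0035, with 10 genes above 0 and 11 below. None of 16 upstream regulators and none of 4 TEAD factors and cofactors tested was called. The largest in size was -0.30 for Frmd6 (adjusted p 0.133) among the upstream regulators and -0.20 for Vgll4 (adjusted p 0.11) among the TEAD factors and cofactors, while Stk3, Stk4, Sav1 and Nf2 lay between -0.05 and 0.05. Of the remaining targets to be named, Myof (-0.17, adjusted p 0.136), F3 (0.21, adjusted p 0.594) and Nt5e (-0.09, adjusted p 0.923) were not called. Tead2, Tead3 and Tead4 had adjusted p of 0.869, 0.945 and 0.726. Vgll1 had 0 counts in all 8 libraries, Vgll3 had 11 and 10, and Axl 23 and 31, all below the filter.

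The members' values in the 2 comparisons are drawn side by side in the plot of fold changes, without a test of their difference, since the kits differ. Lats2 was at 0.37 after ISRIB and 0.11 after bleomycin, and Ccn2 at 0.21 and 4.15. Alveolar type 1 markers, of which 9 of 13 were called after bleomycin, numbered 0 of 14 called after ISRIB, with sums of 3080 to 3260 CPM in vehicle and 2970 to 3230 CPM in ISRIB libraries. Fibroblast markers summed to 20.5 to 29.7 and 16.7 to 27.6 CPM there, and 0 of 6 tested were called. The airway markers summed to 3830 to 4290 CPM in vehicle libraries and to 4160, 3280, 4030 and 2370 CPM in ISRIB 1 to 4, with ISRIB 4 lowest and 0 of 5 tested called. Among the 10 AT2 markers, Etv5, a transcription factor gene, was called lower (-0.28, SE 0.0498, adjusted p 0.00817), from 923 to 999 CPM in vehicle to 759 to 810 CPM in ISRIB libraries. Etv5 was also called lower after bleomycin (adjusted p 0.0199), a call that 3 of 15 other settings lost.

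**Figure D5:**
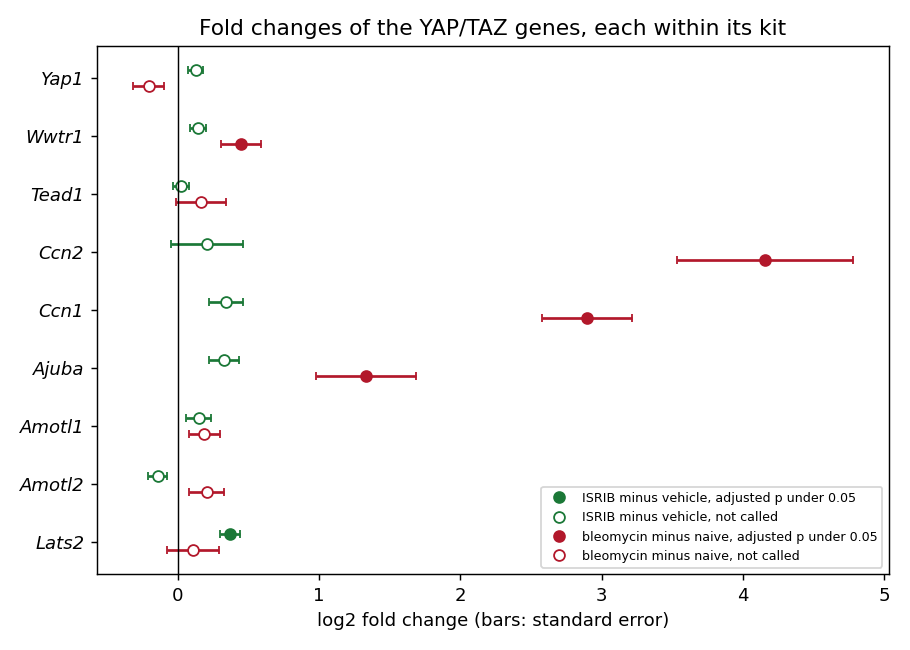
Log2 fold change (x axis; bars: SE) of the 9 tested members after ISRIB (green) and after bleomycin (red), each against its own controls; filled points have an adjusted p under 0.05. After bleomycin Ccn2 (4.15), Ccn1 (2.90), Ajuba (1.33) and Wwtr1 (0.45) are filled, and after ISRIB Lats2 (0.37) is.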

How the data were processed

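The authors deposited raw read counts by Ensembl gene ID, in 1 table per kit, and all 17 columns matched a sample title. Per the submitters' processing notes, bcl2fastq 2.19.1, FastQC, Trimmomatic 0.36, STAR 2.6.0 and HTSeq 0.11.2 and the build mm10 were used; the sources used here give neither the strand setting nor the annotation. Gene symbols, positions and exon lengths came from GENCODE M21 (GRCm38), looked up by gene ID. Within each kit, genes had to pass filterByExpr (minimum count 10, minimum total 15). After TMM scaling, edgeR 4.0.16 under R 4.3.3 tested group, the single term of the model, by its quasi-likelihood F test, in both directions. The procedure was tested on simulated counts. Alternatives were DESeq2 1.42.0, limma-voom (limma 3.58.1), RLE size factors, no filter, ribosomal-RNA-like models left out, a replicate block and single-library omission. The SE is the unshrunken log2 fold change over the root of its F statistic. Exact permutation tests used scipy 1.17.1. Depth limits genes with few counts.

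The members, the gene lists, the ratios and the tests were chosen with earlier results of these data known. The text names all 10 members, the Hippo, TEAD and target-list genes called in a comparison, and a preset group of others (the TEAD and Vgll genes, Lats1, Stk3, Stk4, Sav1, Nf2, Myof, Axl, F3 and Nt5e).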

Additional observations from a re-analysis of the deposited data

Results flagged for a closer look

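Among the members, 4 library values stood apart from their group by Dixon's criterion, in groups of 4 or 5. All 10 members were screened in each of the 4 groups. Chance alone flags about 1 in 20 such screens, so some of these flags may be due to chance. Ccn2 in bleomycin 2 was 24 CPM, against 10.1 CPM in the next highest library of its group, and its log2 fold change without that library was 3.56. Ccn2 in naive 1 was 0.335 CPM, which is 1 read, against 0.596 CPM in the next lowest. Tead1 in bleomycin 1 was 135 CPM, against 81.6 CPM in the next. Wwtr1 in vehicle 4 was 86.4 CPM, against 79.8 CPM in the next.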

How the results depend on the processing

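The number of members called was 1 after ISRIB under all 14 alternatives, and after bleomycin it was 3 or 4 under all 15. Over all genes, 265 were called after ISRIB; DESeq2 called 408, omitting the filter gave 648, and single omissions gave 86 (without vehicle 1) to 269, with 102 without vehicle 2 and 159 without ISRIB 4. After bleomycin 2304 were called, and 1554 to 2584 with single omissions. The fold changes of the members kept their direction except for Tead1 after ISRIB without ISRIB 2 (single omissions -0.0019 to 0.0443), Tead1 after bleomycin without bleomycin 1 (-0.0422 to 0.259) and Lats2 after bleomycin without bleomycin 4 (-0.0401 to 0.1997). Calls of members were lost only for Wwtr1 (5 single omissions) and Ajuba (limma-voom) after bleomycin; in each, the cause was not tested. Without the filter, the median log2 fold change of all 26897 genes tested after bleomycin was -0.27. Genes detected numbered 17108 to 19763 in naive and 13940 to 17112 in bleomycin libraries. Ribosomal-RNA-like models took 20.2 to 29.2% of counts in naive and 15.7 to 22.9% in bleomycin libraries. The part of these differences in that median was not tested. With the replicate number as a block, 277 genes and 1 member were called after ISRIB, and 2099 genes and 4 members after bleomycin (bleomycin 5 has no partner and was left out). Same-numbered libraries correlated by -0.109 to 0.0849 in the ISRIB and -0.0393 to 0.0474 in the bleomycin experiment, so the numbers do not show a pairing. Depth limits Ankrd1, Ccn2 in naive libraries and the targets with few counts.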

Other observations

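The 5 bleomycin libraries did not rank alike over the target genes, a pattern picked out after the values were seen and not tested. Bleomycin 1 and 2 were the highest 2 of their group for Wwtr1 (93.1 and 93.1 CPM), Ajuba (25.9 and 25.4), Ccn1 (34.9 and 52.7), Ccn2 (10.1 and 24), Crim1 (47.6 and 53.4), Nt5e (14.5 and 28.2), Tgfb2 (21.2 and 18.2), Ptpn14 (48.1 and 39) and Ccdc80 (11.1 and 18.4 CPM). The same libraries were the lowest 2 for Thbs1 (239 and 229 CPM, against 308 to 363 in the other 3), Areg (74.9 and 58.5, against 95.8 to 97.2) and Axin2 (20.4 and 14.8, against 25.9 to 40.2 CPM). Other called targets did not follow this order: Birc5 was highest in bleomycin 4 (20.1 CPM) and lowest in bleomycin 1 (2.12 CPM), and Rbms3 (72.2 and 55.6 CPM in bleomycin 1 and 2, against 53.4 to 71.9 in the other 3), Fgf1 (120 and 82.3, against 114 to 130) and Arhgef28 (50 and 38.1, against 37.2 to 51.4 CPM) did not set these libraries apart. Bleomycin 1 and 2 also held the most Col1a1, at 26.7 and 52.3 CPM against 3.87 to 9.9 CPM in the other 3, and the lowest summed AT2 markers, at 50100 and 60900 CPM against 73600 to 88000 CPM. The part of these signals in the ranking was not tested.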
